A study of Mus musculus with 4 samples.

Results

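The Kcnq1-Cdkn1c domain is an imprinted stretch of distal mouse chromosome 7, about 0.5 Mb from Igf2. It was taken here as 150230001 to 150950000 (mm9, 720 kb). It holds 9 listed genes, Cd81, Tssc4, Kcnq1, Kcnq1ot1, Cdkn1c, Slc22a18, Phlda2, Nap1l4 and Osbpl5, and all regions enriched for trimethylation of histone H3 at lysine 36 (H3K36me3) that overlapped it were counted as members. These regions, called islands, numbered 28 of 58326 in wild-type cells and 27 of 69798 in mutant cells. Both groups were myocytes of the FVB strain, from myoblasts taken from skeletal muscle on postnatal day 4, passaged 5 to 10 times and differentiated for 24 hours without growth factors before chromatin immunoprecipitation and sequencing (ChIP-seq). The wild-type group had no stated alteration, and the mutant group carried a deletion of the muscle-specific enhancer of H19 and Igf2. The labels do not say whether 1 or both copies were deleted, how many animals gave the cells or whether they were pooled. There was 1 H3K36me3 library per genotype, so the values below have no replicate check and no test of genotype was possible. Genotype and library cannot be told apart. The mean depth, solved from the deposited scores, came to 2.82 (wild type) and 3.11 (mutant) reads for each window of 200 bp. The muscle identity of the cells was not checked here, since muscle marker genes lie outside the domain and were not placed on mm9.

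Imprinted genes are transcribed mainly from the copy inherited from 1 parent. In this domain the noncoding RNA Kcnq1ot1 is transcribed from the paternal copy, from a start inside an intron of Kcnq1 and antisense to it. In some tissues and stages its transcription is known to silence Kcnq1, Cdkn1c, Slc22a18 and Phlda2 on the same copy. There these genes are transcribed mainly from the maternal copy. Whether this holds for each of them in postnatal myocytes was not tested here. Cd81, Tssc4 and Osbpl5 lie farther out, and their imprinting is known mostly from the placenta. H3K36me3 is laid down over transcribed gene bodies by SETD2, which travels with elongating RNA polymerase II, and is usually low at active start sites and higher towards the 3′ end. The island lists do not separate the parental copies, so no value below belongs to 1 parental copy.

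The bases just before the start site are printed for genes chosen by where their annotated starts lay relative to the islands. The sequences themselves do not show where the mark lies, and the starts are annotated, not measured in these cells. A RefSeq promoter was at hand for 6 of the 9 genes (GRCm38.p6). Of these, Kcnq1ot1 is shown because its listed promoter start was the one that lay inside an island in both libraries. Cd81 and Osbpl5 are shown because in both libraries they were the matched genes covered to over 20% with no island at the outermost annotated start. The gene body of Tssc4 also begins inside an island in both libraries, at 150.254321 Mb. Its listed promoter start, at 150.255273 Mb, lies outside the islands. Each line gives the 250 bases before the start, 5′ to 3′ on the transcribed strand, with CG dinucleotides, the sites of DNA methylation, in capitals.
Kcnq1ot1 (chr7:143296548-143296797, GRCm38.p6, minus strand): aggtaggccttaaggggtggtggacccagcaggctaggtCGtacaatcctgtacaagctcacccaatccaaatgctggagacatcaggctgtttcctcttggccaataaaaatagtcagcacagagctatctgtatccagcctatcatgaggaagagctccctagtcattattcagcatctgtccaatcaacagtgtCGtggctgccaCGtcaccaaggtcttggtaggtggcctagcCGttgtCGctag
Cd81 (chr7:143052500-143052749, GRCm38.p6, plus strand): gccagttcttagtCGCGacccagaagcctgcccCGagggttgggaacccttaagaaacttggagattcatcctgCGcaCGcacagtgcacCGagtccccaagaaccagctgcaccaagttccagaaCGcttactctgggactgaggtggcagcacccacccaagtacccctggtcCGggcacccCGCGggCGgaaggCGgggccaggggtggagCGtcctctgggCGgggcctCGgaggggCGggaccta
Osbpl5, outermost start (chr7:143757009-143757258, GRCm38.p6, minus strand): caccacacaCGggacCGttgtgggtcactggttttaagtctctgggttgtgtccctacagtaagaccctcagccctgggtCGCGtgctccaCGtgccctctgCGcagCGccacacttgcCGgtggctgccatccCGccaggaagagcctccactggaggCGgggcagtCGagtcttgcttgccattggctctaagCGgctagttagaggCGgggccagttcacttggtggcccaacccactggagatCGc
The Kcnq1ot1 stretch held 5 CG dinucleotides, near the median of 6 over all 32851 promoter entries, against 16 in Cd81 and 14 in Osbpl5. At least as many CG were found in 55.6%, 25.4% and 29.4% of all entries, respectively. The bases past the starts were not counted, so these counts do not describe the CG content around a start as a whole. The letters CCAAT, searched on both strands with ATTGG as the reverse, were found 3 times in the Kcnq1ot1 stretch, once in that of Osbpl5 and not in that of Cd81. Of all entries, 33.8% held the motif at least once and 2.79% held it at least 3 times. Among the other matched genes, the 250 bases before the listed start held 21 CG in Phlda2, 17 in Tssc4 and 0 in Slc22a18.

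The mark lay over the same parts of the domain in both genotypes. Islands covered 27.7% of it (199.4 kb) in wild-type cells and 27.5% (198.2 kb) in mutant cells, a ratio of 0.994, while over the whole lists the ratio was 0.967. Of the covered length, 169.4 kb was common to both, 30.0 kb was found in wild-type cells alone and 28.8 kb in mutant cells alone. In 3 blocks the mark was shared: over Cd81, over the first part of Kcnq1ot1, and from Nap1l4 to Osbpl5. Between them lay 2 long stretches with little or none, 1 over the first part of Kcnq1 and 1 from the later part of Kcnq1 across Cdkn1c, Slc22a18 and Phlda2.

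**Figure D1:**
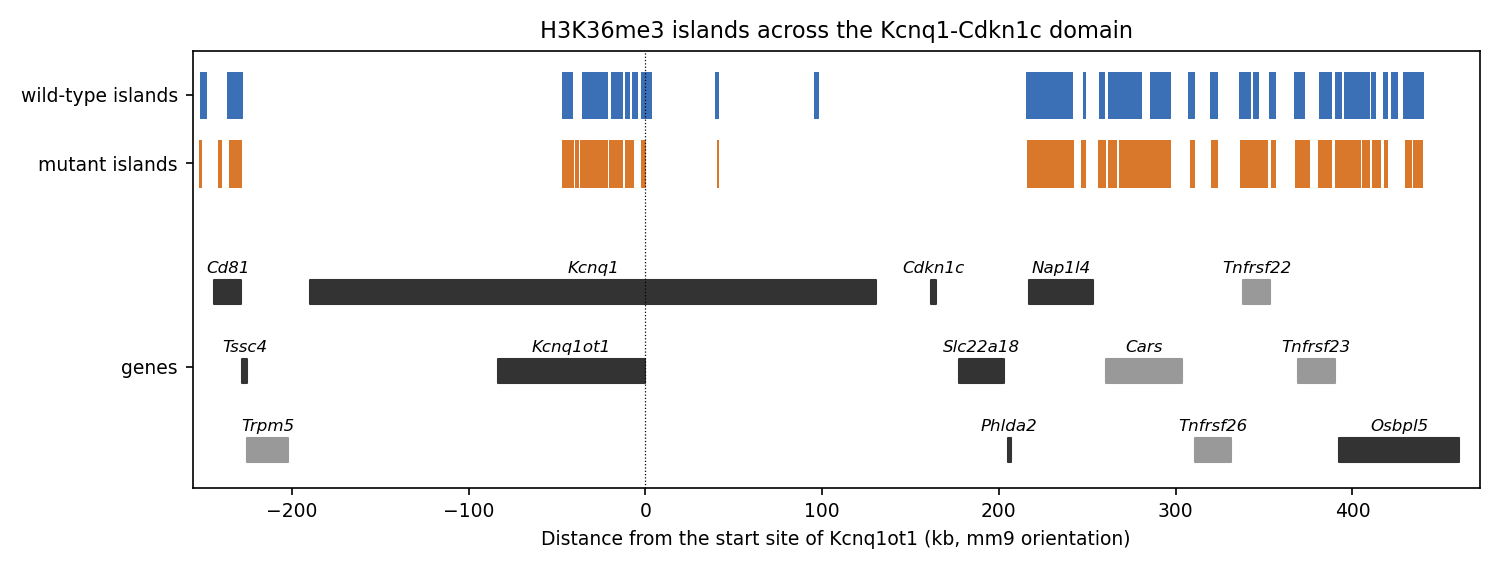
Islands of the 2 libraries (upper rows, 1 bar per island) and gene bodies (lower rows, listed genes dark, neighbours grey) along the domain, in kb from the start site of Kcnq1ot1. Both rows of islands show the same 3 blocks, and none lies over Cdkn1c, Slc22a18 or Phlda2.

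Gene positions are GRCm38 positions moved to mm9 by a constant, so gene limits are approximate. Of the 9 listed genes, 6 were partly covered in both libraries, 3 held no island in either, and none was covered in 1 library alone. Of the 15 other annotated genes of the domain, 8 were covered in both libraries, 7 in neither, and again none in 1 alone. The same shares over all annotated genes were not at hand, so these counts are not read as particular to the domain. The genes are also not independent. Tssc4 counted as covered through the end of the island over Cd81, and Kcnq1 mostly through the stretch it shares with Kcnq1ot1. Over the 9 listed genes the median cover of a gene body was 17.9% in wild-type cells (Tssc4) and 13.1% in mutant cells (Kcnq1). These medians are values of different genes, so no change is read from them. The members' differences, mutant minus wild type, ran from -7.47 to 9.22 percentage points. The listed gene bodies together made up 65.6% of the domain and held 60.6% of the wild-type and 57.4% of the mutant cover. The 15 other annotated genes held a further 29.4% and 34.4%, over 18.7% of the domain, and the stretches between genes 10.1% and 8.20%, over 15.7% of it.

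**Figure D2:**
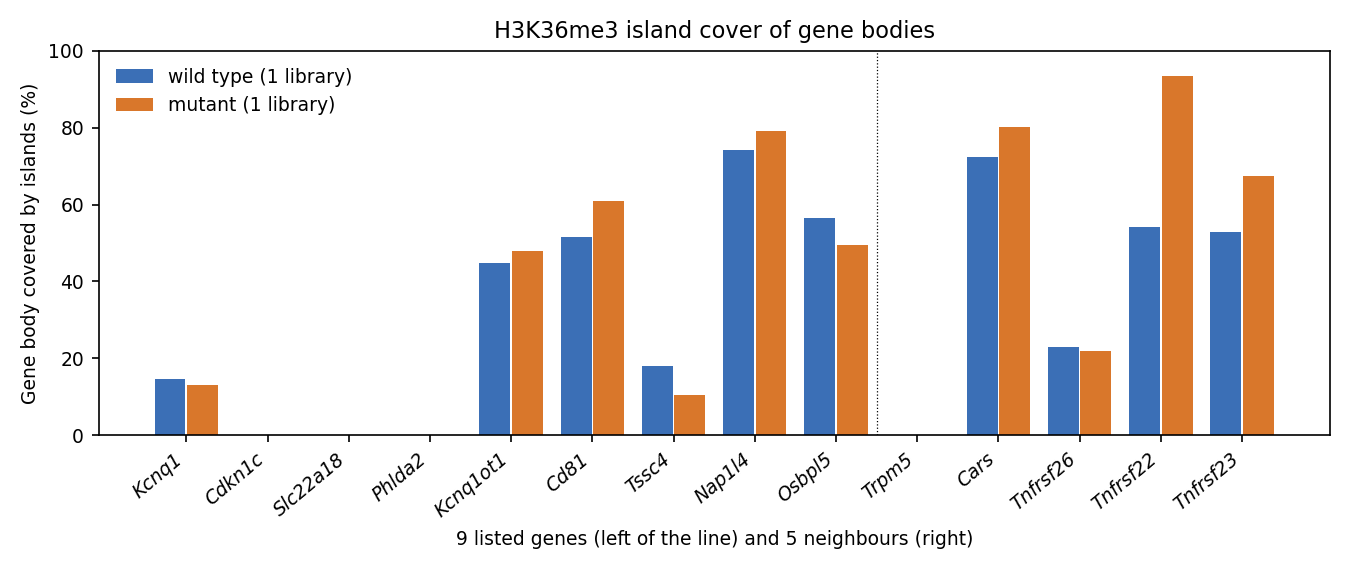
Share of each gene body covered by islands (vertical axis, %) in the wild-type and the mutant library, 1 library each and so without error bars. Cdkn1c, Slc22a18, Phlda2 and Trpm5 are at 0 in both, and Nap1l4 is the most covered listed gene, at 74.1% and 79.1%.

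Kcnq1ot1, the paternally transcribed noncoding RNA, was covered to 44.9% in wild-type cells and 48.0% in mutant cells, by 6 islands in each, and the cover was confined to its first part in both lists. The gene is annotated from 150.399 to 150.482 Mb and is transcribed from the higher to the lower coordinate. In both libraries the covered block ended at the same 200 bp window, at 150435201, which is 47.3 kb past the start. The remaining 36.2 kb of the annotated transcript held no island in either. In 10 kb steps from the start, the wild type was covered to 76.0%, 82.5%, 91.5%, 58.5% and 66.0% and then 0%. The mutant was covered to 60.0%, 92.0%, 92.0%, 88.5% and 68.0% and then 0%. The order of the libraries thus turned between the steps, with more cover in wild-type cells in the first step and more in mutant cells from 30 to 40 kb. The 10 kb before the start were covered to 39.5% and 5.48%.

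The islands over Kcnq1ot1 differed in how dense the mark was, by the authors' deposited island score divided by the number of 200 bp windows. SICER scores grow with depth, so they are read within a list only. The island farthest from the start was the densest of the block in both lists. It lay 40.7 to 47.3 kb past the start in wild-type cells (150435201 to 150441800, 6.6 kb) and scored 9.10 per window, denser than 97.4% of wild-type islands. Its mutant counterpart (150435201 to 150442000, 6.8 kb) scored 9.29 per window, at the 96.8 percentile of its list. At the other end, the wild-type island across the start site (150480001 to 150486400, 6.4 kb) scored 2.55 per window, at the 18.1 percentile. The mutant island there (150480201 to 150483000, 2.8 kb) scored 1.87, at the 2.17 percentile, and reached 0.548 kb before the start, where the wild-type one reached 3.95 kb. The mark was thus sparse around the start and dense at the far edge in both libraries. The longest island of the block lay between these ends, at 150446601 to 150461600 (15 kb, score per window 4.08) in wild-type cells and 150445601 to 150461200 (15.6 kb, 3.54) in mutant cells. Of the other islands of 5 kb or more, 1 in each list lay next to it, at 150463201 to 150470000 (6.8 kb) and 150462001 to 150470000 (8 kb). The mutant had a further one at 150470801 to 150476200 (5.4 kb), where the wild type had 2 shorter islands, of 3 and 3.6 kb.

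**Figure D3:**
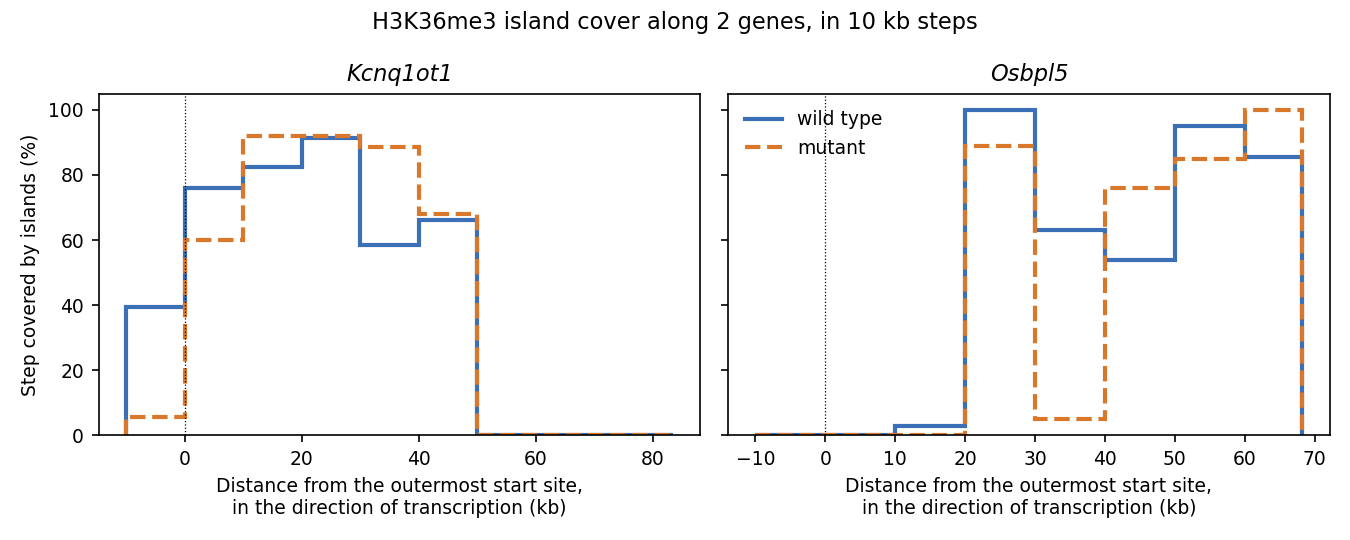
Share of each 10 kb step covered by islands (vertical axis, %) against the distance from the outermost annotated start in the direction of transcription (kb), for Kcnq1ot1 and Osbpl5; the last step of each gene is shorter. In Kcnq1ot1 cover is 0 from 50 kb on in both libraries, and in Osbpl5 it is at most 2.87% in the first 20 kb.

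Kcnq1, which encodes the pore-forming subunit of a voltage-gated potassium channel, had little cover apart from the part it shares with Kcnq1ot1. Its body of 320.2 kb (150.293 to 150.613 Mb) was covered to 14.7% in wild-type cells and 13.1% in mutant cells. Of this cover, 79.7% and 95.8% lay over Kcnq1ot1, and islands carry no strand, so the mark there cannot be assigned to either gene. The 106.2 kb of Kcnq1 before that stretch held no island in either library. The 130.5 kb after it were covered to 7.32% in wild-type cells (9.55 kb in 3 islands) and to 1.34% in mutant cells (1.75 kb in 2 islands). Of the wild-type length there, 3.95 kb belonged to the island across the Kcnq1ot1 start. A small island was shared, at 150521601 to 150524400 in wild-type cells (2.8 kb) and 150523001 to 150524200 in mutant cells (1.2 kb). The mutant one was dense for its list, at 8.19 per window or the 94.5 percentile, and the wild-type one was not, at 3.09 or the 34.6 percentile. Score per window depends on the called length. By undivided score the 2 islands lay at the 27.4 percentile in wild-type cells and the 47.5 percentile in mutant cells. The island at 150578001 to 150580800 (2.8 kb) overlapped nothing in the mutant list. The noncoding genes Gm28821 and 4933417O13Rik, which lie inside Kcnq1, held no island.

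Cdkn1c, Slc22a18 and Phlda2, the maternally transcribed genes next to Kcnq1, held no island in either library. Cdkn1c encodes p57, an inhibitor of cyclin-dependent kinases. Slc22a18 encodes a membrane transporter of the solute carrier family, and Phlda2 a small protein with a pleckstrin homology domain that limits placental growth. Cover was 0 kb over all 44.8 kb from Cdkn1c to Phlda2 (150.644 to 150.689 Mb), including the noncoding gene Gm33663. The nearest islands to Cdkn1c were 63.4 kb before and 51.0 kb past it in wild-type cells, and 120.04 kb before and 51.2 kb past it in mutant cells. The distance before it differed because of the wild-type island at 150578001. Past the group, Phlda2 was 8.95 kb and 9.15 kb from the islands over Nap1l4. No island means that no region there passed the authors' calling, not that the mark is absent. Cdkn1c, Slc22a18 and Phlda2 all lay inside an island-free stretch of 117.2 kb in wild-type cells and 174 kb in mutant cells. Islands no longer than Phlda2 (1.6 kb) made up 6.73% of the wild-type and 18.8% of the mutant list. Those no longer than Cdkn1c (2.72 kb) made up 26.0% and 45.2%. A gene can also lie inside an island longer than itself. Slc22a18, at 25.6 kb, was longer than 99.2% and 99.5% of islands.

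The longest stretch of the domain without an island was nearly the same in both libraries, and the next longest was not. The former ran from 150254801 to 150435200 in wild-type cells (180.4 kb) and from 150254601 in mutant cells (180.6 kb). It took in most of Tssc4, Trpm5, the first part of Kcnq1 and the last part of Kcnq1ot1. The latter ran from 150580801 to 150698000 in wild-type cells (117.2 kb) and from 150524201 to 150698200 in mutant cells (174 kb), which had no island at 150578001.

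Cd81 and Tssc4, at the end nearer the centromere, differed in how much of them was covered. Cd81 encodes a tetraspanin, a membrane protein with 4 membrane-spanning segments, and Tssc4 is its small neighbour. Cd81 (150.239 to 150.254 Mb) was covered to 51.6% in wild-type cells and 60.8% in mutant cells, and in the higher-scoring 50% of islands the order turned, with 51.6% and 45.0%. Its main island lay at 150246001 to 150254800 (8.8 kb) in wild-type cells and 150247001 to 150254600 (7.6 kb) in mutant cells, the former beginning 7.35 kb past the listed start. The mutant had a further island at 150240601 to 150243000 (2.4 kb) with no counterpart. It began 1.95 kb past the start, was among the weakest of the domain, with a score at the 25.4 percentile of its list, and its absence from the upper 50% is what turned the order. The main island ran on into Tssc4, of which 17.9% and 10.5% was covered. With the genes moved by 2 kb either way, the cover of Tssc4 was 92.6% and 85.1% or 0% in both, so its value depends on its exact place. Trpm5, a cation channel gene between Tssc4 and Kcnq1, held no island. The part of the noncoding gene R74862 that lies in the domain, before Cd81, was covered to 41.7% in wild-type cells and 16.7% in mutant cells, by 1 island in each.

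Nap1l4, which encodes a histone chaperone of the nucleosome assembly protein family, was the most covered listed gene and the most alike between the libraries. It lies at 150.699 to 150.736 Mb, and islands took up 74.1% of it in wild-type cells and 79.1% in mutant cells. The covered parts had a Jaccard index, the common length as a share of the length covered in either, of 93.7%, against 80.02% for Kcnq1ot1, 69.9% for Osbpl5, 68.8% for Kcnq1, 66.8% for Cd81 and 58.3% for Tssc4. Its main island had the highest score of the domain in both lists, at 150698001 to 150724600 in wild-type cells (26.6 kb, score 636, 98.4 percentile) and 150698201 to 150725200 in mutant cells (27 kb, score 807, 99.2 percentile). It stopped well short of the higher end of the gene, and a short island at 150729801 to 150731600 (1.8 kb) and 150728801 to 150731800 (3 kb) followed.

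Osbpl5, which encodes an oxysterol-binding protein-like lipid transfer protein, was covered to 56.5% in wild-type cells and 49.4% in mutant cells, by 6 islands in each, and its first 10 kb held none in either. The gene is transcribed from the higher coordinate (150.943 Mb) to the lower (150.875 Mb). The first island past the outermost start began 19.7 kb downstream in wild-type cells and 20.3 kb in mutant cells. RefSeq lists 2 further starts inside the gene, at 150.928 and 150.926 Mb, and the same islands began 4.67 and 3.07 kb past these in wild-type cells and 5.27 and 3.67 kb in mutant cells. The 250 bases before the innermost start held 18 CG, and those before the middle one 1. The cover then ran through the 3′ end, with 94.9% and 84.9% at 50 to 60 kb from the outermost start and 85.4% and 100% from there to the end of the gene.

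The largest difference within Osbpl5 lay 30 to 40 kb from its outermost start, with 63.1% in wild-type cells and 5.13% in mutant cells. The wild-type island at 150904001 to 150908400 (4.4 kb) had no counterpart there, and the long wild-type island at 150911001 to 150923200 (12.2 kb) was matched by 2 mutant islands, at 150912401 to 150916000 (3.6 kb) and 150916801 to 150922600 (5.8 kb). At 40 to 50 kb the order turned, with 54.0% and 76.0%. The other islands of 5 kb or more were at 150877601 to 150892400 (14.8 kb) in wild-type cells and at 150872801 to 150887200 (14.4 kb) and 150893401 to 150898600 (5.2 kb) in mutant cells.

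Between Nap1l4 and Osbpl5 lie the transfer RNA synthetase gene Cars and the receptor genes Tnfrsf26, Tnfrsf22 and Tnfrsf23 of the tumor necrosis factor receptor superfamily. From the start of Nap1l4 to the end of Osbpl5, 243.4 kb, islands covered 56.7% in wild-type cells and 59.0% in mutant cells, against 13.1% and 11.6% of the part of the domain before Nap1l4. Cars was covered to 72.3% and 80.3%. Its islands of 5 kb or more lay at 150744401 to 150763400 (19 kb) and 150767801 to 150779800 (12 kb) in wild-type cells. In the mutant they lay at 150744001 to 150749000 (5 kb) and 150750201 to 150779600 (29.4 kb, the longest of the domain).

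Tnfrsf22 and Tnfrsf23 were more covered in the mutant library, and the values of Tnfrsf26 lay close together. Tnfrsf22 was covered to 54.3% in wild-type cells and 93.4% in mutant cells, where 1 island at 150818601 to 150834600 (16 kb) overlapped 2 wild-type ones, at 150818001 to 150825200 (7.2 kb) and 150826401 to 150829800 (3.4 kb). Tnfrsf23 was covered to 52.8% and 67.3%, with islands at 150849601 to 150855400 (5.8 kb) and 150863401 to 150870600 (7.2 kb) in wild-type cells and at 150850001 to 150858200 (8.2 kb) and 150863201 to 150870600 (7.4 kb) in mutant cells. These were dense in their lists, at 6.54 and 5.81 per window (90.6 and 86.0 percentile) in wild-type cells and 9.55 and 8.55 (97.1 and 95.4 percentile) in mutant cells. Tnfrsf26 was covered to 22.8% and 21.8%. The noncoding gene E230032D23Rik, inside Tnfrsf23, was covered to 52.7% and 100%, and the microRNA gene Mir7064 (in Cars) and the small nucleolar RNA gene Gm23297 (in Nap1l4) lay wholly inside islands in both. Gm15580, Gm15579 and the part of Mrgprg in the domain held none.

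**Figure D4:**
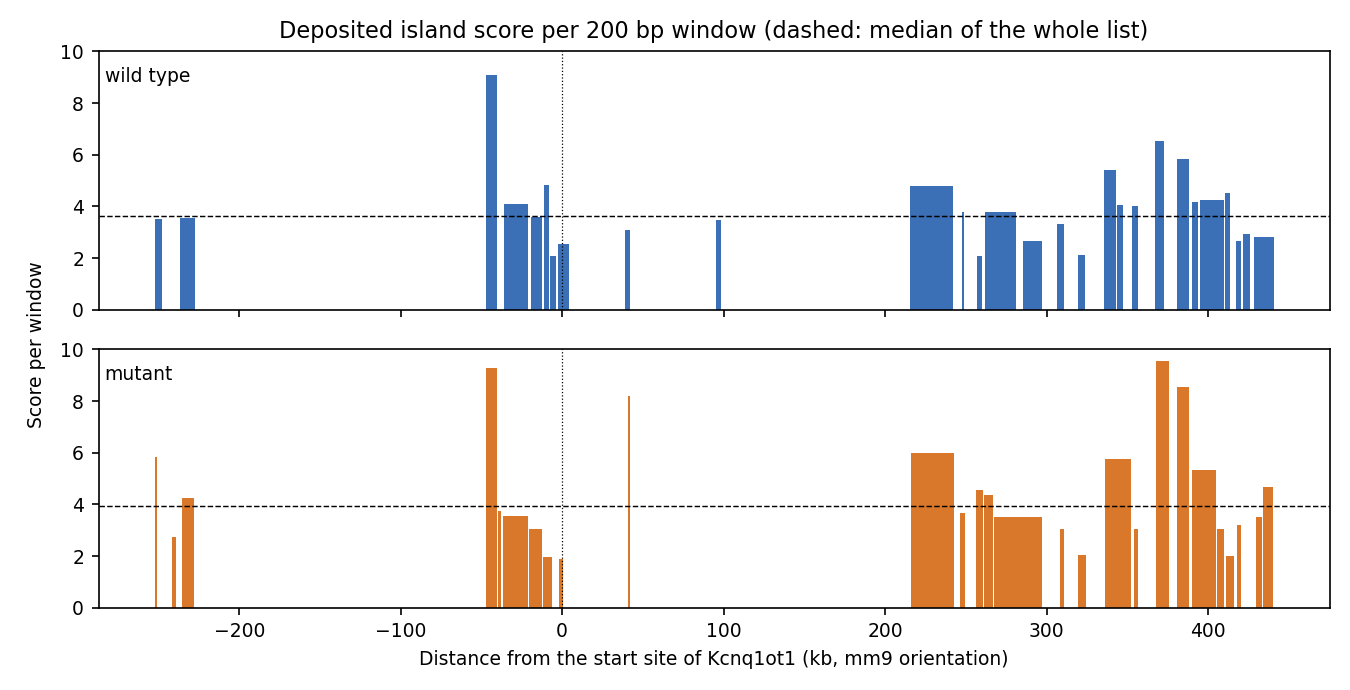
Deposited score per 200 bp window of each island (bar height; bar width is island length) against the distance from the Kcnq1ot1 start (kb), wild type above and mutant below; the dashed line is the list's median, 3.62 and 3.95. The island at the far edge of the Kcnq1ot1 block reaches 9.10 and 9.29, and heights are not comparable between the panels because the score grows with depth.

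Most islands of the domain had a counterpart in the other library, an overlap of at least 1 bp. It was found for 26 of 28 wild-type islands (92.9%, exact binomial 95% interval 76.5% to 99.1%, counting error only) and 25 of 27 mutant islands (92.6%, 75.7% to 99.1%). The 2 wild-type islands without one, in Kcnq1 and Osbpl5, compare with 18.0% of the whole wild-type list. The 2 mutant ones, in Cd81 and, at 150442801 to 150444800 (2 kb), in Kcnq1ot1, compare with 25.7% of the mutant list. In the whole lists 82.0% and 74.3% had a counterpart. Islands of the domain were longer than those of the lists, with medians of 4.5 and 5 kb against 3800 and 3000 bp, and the part of length in these shares was not tested. Asking for 50% reciprocal overlap left 53.6% of wild-type and 55.6% of mutant islands with a counterpart, against 55.4% and 46.3% of the whole lists, where 44.6% and 53.7% had none. Island scores spread from low to high, with medians at the 59.4 and 58.6 percentile of the lists. In the upper 10% of their list by score were 5 wild-type and 8 mutant islands (17.9% and 29.6%). The undivided score grows with island length. By score per window, 2 wild-type and 4 mutant islands were in the upper 10%, and the medians lay at the 51.7 and 43.5 percentile.

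Set against stretches of the same length, the domain was well covered and its Jaccard index was high. Among 3090 windows of 720 kb tiled along the 19 autosomes that held an island, wild-type cover was below that of the domain in 83.7% and mutant cover in 85.5%, with medians of 10.2% and 10.2%. In the 1463 windows covered to at least 10% in both libraries, the Jaccard index had a median of 61.0%, with 42.3% to 75.8% from the 5th to the 95th percentile, and the domain's 74.2% exceeded 93.0% of them. Their mutant to wild-type ratio ran from 0.729 to 1.31 over the same percentiles, so the domain's 0.994 lay near the middle, at the 57.1 percentile. The windows were not matched to the domain in cover, and the part of cover in the Jaccard rank was not tested. The adjoining 720 kb on either side were less covered, with 14.8% in wild-type cells and 10.5% in mutant cells on the Igf2 side and 11.4% and 9.69% on the other.

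**Figure D5:**
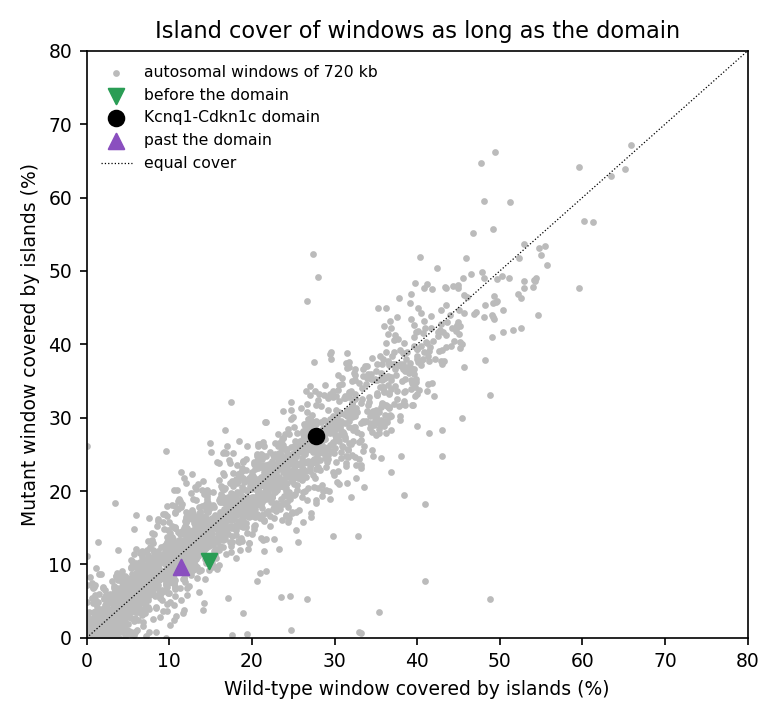
Island cover of 720 kb windows of the autosomes (grey points) in wild-type cells (horizontal axis, %) and the mutant (vertical axis, %), with the domain as a black circle and the adjoining windows as triangles. The domain, at 27.7% and 27.5%, sits on the line of equal cover, and the adjoining windows lie below it, at 14.8% and 10.5% and at 11.4% and 9.69%.

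In 20 kb bins the genotypes differed by 20 percentage points or more at 2 places. Of 36 bins, 19 held an island in either library and 17 none. Cover was lower in mutant cells by that much in 1 bin, at 150470001 to 150490000 around the Kcnq1ot1 start (65.0% and 41.0%), where 11.2% of the autosomal bins with an island were lower by as much. It was higher in 1 bin, at 150750001 to 150770000 in Cars (78.0% and 99.0%), where 8.6% of autosomal bins were higher. Together these are 10.5% of the domain's bins with an island, against 19.8% of the autosomal ones, and 11 of the 19 (57.9%) differed by less than 10 points, against 50% of the autosomal ones. The count rests on the bin size: with 10 kb bins it was 5 in each direction of 36 with an island, together 27.8%. Of 74986 autosomal 10 kb bins with an island, 16.9% were higher in the mutant by as much and 19.9% in the wild type, together 36.8%.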

How the data were processed

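H3K36me3 islands of 1 wild-type and 1 mutant library were analysed; the 2 input libraries were not analysed here. Per the submitters' processing notes, the authors used Bowtie 1.0.0 and SICER 1.1 on mm9. The deposited value is the SICER score of each island, in lists with windows of 200 bp and a gap of 600 bp per the file names. One list came from each library and nothing was pooled. The use of input reads and the removal of duplicates are not given in the sources that were used. The mean reads per window, solved from the scores of islands 1 window long (residuals of at most 5.59e-08), were 2.82 in wild-type cells and 3.11 in mutant cells, a ratio of 1.10. Island ends were read as the last base counted from 0, and positions are printed counted from 1.

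Cover, shared length and overlap were computed with Python 3.11.15, numpy 2.4.6, pandas 2.3.3 and scipy 1.17.1 and drawn with matplotlib 3.10.9. They were tested on simulated islands (20 of 20 runs recovered) and simulated depths (20 of 20). Gene limits are the RefSeq GRCm38.p6 positions plus 7185905 bp, the difference between the builds on this stretch. It was not checked here against an mm9 annotation. Named were the 9 listed genes, all other annotated genes of the domain, islands of 5 kb or more and islands with no counterpart. The members and lists were chosen with earlier results of these data known. No p-value was computed. The alternatives were the higher-scoring 50% of each list, islands of at least 2 kb, islands within 2 kb joined, equal covered length, stricter overlap, genes moved by 2 kb, 10 kb bins and other domain limits.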

Additional observations from a re-analysis of the deposited data

How the results depend on the processing

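Of 56 values of 11 results under the alternatives, 39 counted as the same and 17 did not. The same meant within the main value's binomial 95% interval over windows or islands or, for counts, within 1.5 times of it. Windows of an island are adjacent and not independent, so this interval is a fixed yardstick and not a measure of spread. Equal covered length removed no island of the domain and gave the main values, so the tally does not measure stability. With the higher-scoring 50% of each list, the domain was covered to 24.3% in wild-type cells and 24.5% in mutant cells, so that their order turned. The Jaccard index was 69.4% there, wild-type islands with a counterpart were 75.0%, the cover of the listed genes was 22.1% and 21.8%, and 2 bins were higher in each library. Island numbers there fell to 20 and 18, the latter at the limit of 1.5 times. The upper 50% kept 29163 wild-type and 34900 mutant islands, so the lists were not treated alike. With islands within 2 kb joined, cover was 29.6% and 29.2%, island numbers were 18 and 16, and 3 bins were higher in mutant cells. From the first to the last listed gene, cover was 27.7% and 27.9%, which also turned the order, so no direction is read from it. The 50% reciprocal overlap gave 53.6% of wild-type and 55.6% of mutant islands, and 10 kb bins gave 5 higher in wild-type cells and 5 in mutant cells. The cause of these shifts was not tested, apart from the joining itself. Cdkn1c, Slc22a18 and Phlda2 stayed at 0 in both libraries. No alternative could change this, since the nearest island to any of them lay 8.95 kb away. All alternatives use the same 2 lists, so a kept sign is not a replicate check. For Cars, Tnfrsf22 and Tnfrsf23 the higher-scoring 50%, islands of at least 2 kb and equal covered length gave the main values. For Kcnq1 equal covered length and both moves of the genes gave the main difference. Tssc4 had the main difference in all 5 alternatives that kept its sign. Kcnq1ot1, Nap1l4 and Osbpl5 also repeated theirs in some alternatives. Many of the kept signs below are thus the main value repeated and add no support. The sign of the difference in cover was kept in 6 of 6 alternatives for Kcnq1, Kcnq1ot1, Nap1l4, Osbpl5, Cars, Tnfrsf22 and Tnfrsf23. For Cd81, Tssc4 and Tnfrsf26 it was kept in 5 of 6; in the other, Cd81 turned, and Tssc4 and Tnfrsf26 were at 0 in both. No paired analysis was possible because each genotype has 1 library, and no replicate could be left out.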
